A study of Mus musculus with 2 samples.

Results

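Ly6c2 monocytes were a rare class of cell barcodes among sorted brain cells: 73 of 28383 barcodes kept, 16 in the vehicle library and 57 in the corticosterone library. They were selected on their measured transcripts. A barcode was kept with at least 500 UMIs (molecular tags that count each captured transcript a single time), no fewer than 300 genes, and mitochondrial transcripts making up 20% of UMIs or less. It was taken as a monocyte if it held at least 4 of 7 monocyte genes (Ly6c2, Plac8, Ms4a4c, Fn1, S100a4, Napsa and Ccr2), at most 1 of 5 neutrophil granule and receptor genes (Cxcr2, Retnlg, Camp, Ngp and Ltf) and fewer than 10 UMIs over the 4 class II histocompatibility genes H2-Aa, H2-Ab1, H2-Eb1 and Cd74. Levels of these 16 genes are therefore a description of the choice.

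The source was prefrontal cortex of C57BL/6 mice given vehicle or corticosterone (the chief stress steroid of rodents) by oral gavage, which models the excess of stress hormone seen in some depression. Both groups went through the same digestion with Liberase TL and DNase I at 37 °C for 15 min and the same sort for CD45low CD11b+ cells, labelled microglia. Each group was 1 library, and the dose, duration, sex and number of animals per library are not given in the sources used here. No test between groups was possible, intervals are at the 95% level and cover counting error only, and group and library cannot be told apart.

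Classical monocytes are made in the bone marrow, circulate in blood and carry the surface protein Ly6C, which Ly6c2 encodes. They need the chemokine receptor Ccr2 to leave the marrow and can enter inflamed tissue, where they may turn into macrophages. In blood, some lose Ly6C and Ccr2 and become nonclassical monocytes, a patrolling cell that depends on the transcription factor Nr4a1 and carries Ace and Treml4. Healthy brain tissue holds few monocytes, and those present can lie within vessels.

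The vehicle monocytes held 98407 UMIs in all and the corticosterone monocytes 460383. Their median depth was 3992 UMIs (604 to 23515) in vehicle and 6912 UMIs (1539 to 26124) in corticosterone, above the library medians of 3220.5 and 3961. Median mitochondrial shares were 3.71% and 4.03%. Of the barcode strings kept, 101 occurred in both libraries, and 0 of these were monocytes. No caller of doublets was applied, so a barcode may hold more than 1 cell.

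Monocytes made up 0.152% of vehicle barcodes (16 of 10500, exact binomial interval 0.0871 to 0.247%) and 0.319% of corticosterone barcodes (57 of 17883, 0.241 to 0.413%). These intervals overlapped. After every barcode was thinned to 1000 UMIs, the rule found 8 of 9424 vehicle barcodes (0.0849%, 0.0367 to 0.167%) and 52 of 17339 corticosterone barcodes (0.300%, 0.224 to 0.393%), and with at least 5 of 7 monocyte genes the shares were 0.114% (0.0591 to 0.2%) and 0.291% (0.217 to 0.381%). Under both of these rules the intervals did not overlap. With at least 3 of 7 they were 0.257% (0.17 to 0.374%) and 0.391% (0.305 to 0.494%), which overlapped. The sort gate on CD45, a protein that blood monocytes carry at a higher level than microglia, can set these shares, and its part was not tested.

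Most barcodes lay well inside the rule. All 7 monocyte genes were detected in 9 of 16 vehicle and 44 of 57 corticosterone monocytes. Just inside the threshold, with 4 genes, were 4 vehicle and 5 corticosterone barcodes, and just outside, with 3 genes, were 11 and 13. The highest class II count in a monocyte was 4 UMIs in vehicle and 5 in corticosterone, whereas the 12 barcodes over that limit held 339 UMIs in vehicle (1 barcode) and 13 to 917 in corticosterone (11 barcodes). Another 2 vehicle and 7 corticosterone barcodes had the monocyte genes but 2 or more of the neutrophil genes.

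The genes that chose the monocytes were abundant in them. Levels are given as CPM, the UMIs of a gene per 1000000 UMIs summed over the monocytes of a library. Ly6c2 (ENSMUSG00000022584) had a vehicle level of 3486 CPM (3126 to 3875) and a corticosterone level of 7244 CPM (7000 to 7494). Its lowest, median and highest CPM in single barcodes were 0, 3614 and 12132 in vehicle and 0, 6835 and 23542 in corticosterone, so the ranges overlapped. Plac8 stood at 1910 and 4711 CPM and Ms4a4c, of the membrane-spanning 4A family, at 508 and 1538 CPM. Fn1, which encodes the matrix protein fibronectin, stood at 1128 and 2083 CPM and S100a4, a calcium-binding protein, at 661 and 1340 CPM. Ccr2 was at 782 and 767 CPM and the protease gene Napsa at 610 and 665 CPM, so these summed levels were close in the 2 libraries. In single barcodes the median of Ccr2 was 1288 CPM in vehicle and 583 CPM in corticosterone. In microglia barcodes of the same libraries, Ly6c2 was at 2.04 and 2.71 CPM.

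**Figure D1:**
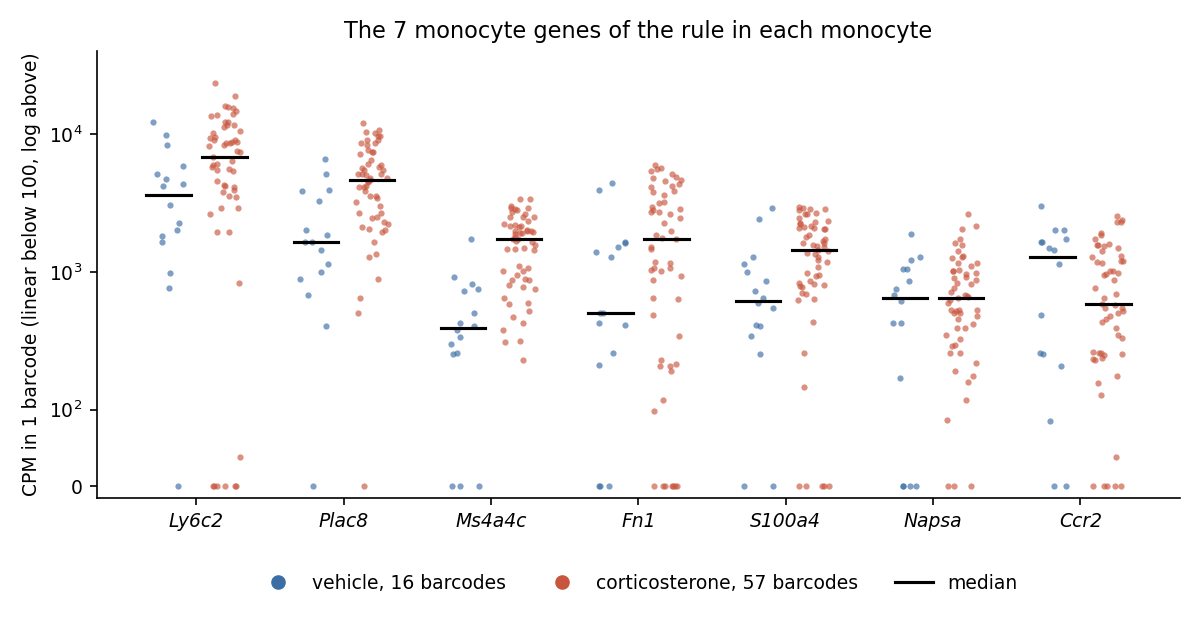
CPM of the 7 monocyte genes of the rule in each of the 16 vehicle and 57 corticosterone monocyte barcodes, with bars at the medians, on an axis that is linear below 100 and logarithmic above. The medians of Ly6c2, Plac8, Ms4a4c, Fn1 and S100a4 are higher in corticosterone, that of Ccr2 is lower (583 against 1288 CPM), and the ranges overlap for all 7 genes.

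The name held for most but not all of the barcodes. No Ly6c2 UMI was found in 1 vehicle and 6 corticosterone monocytes, and each of these 7 carried a UMI of Ace, a gene of nonclassical monocytes. Of the 6 in corticosterone, 1 also carried 8 of 10 endothelial markers. The 7 barcodes met the rule through other genes and are described with the other Ace barcodes further on. Other barcodes carried microglial RNA. In 1 vehicle barcode, Sall1, P2ry12, Tmem119 and Siglech made up 1.13% of UMIs (microglia median 1.03%), beside 3 Ly6c2 UMIs. In another they made up 1.08%, beside 23 Ly6c2 UMIs. The name is less sure for such barcodes.

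Against microglia, the monocytes had a distinct set of transcripts. The microglia reference was 7575 vehicle and 15389 corticosterone barcodes with at least 3 of 4 microglia markers (Sall1, P2ry12, Tmem119 and Siglech) and few or no genes of the other classes. Of 3361 genes tested, 250 were 4-fold or more above microglia in both libraries (7.44%) and 2 were 4-fold or more below in both (0.0595%). The genes tested had a mean CPM of at least 50 and at least 10 UMIs over both libraries, in the monocytes. Genes abundant in microglia but scarce in monocytes therefore did not enter, which limits the lower count. Because the barcodes were chosen by expression, the comparison is a description. The 2 lower genes, named after their values were seen, were the complement receptor gene C3ar1 (102 against 520 CPM in vehicle, 180 against 808 CPM in corticosterone) and the immune checkpoint gene Lag3 (81.3 against 339 and 28.2 against 125 CPM).

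Of 16 classical monocyte genes outside the rule that passed the filter, 14 were 4-fold or more above microglia in both libraries, beside 7.44% of all genes tested. They include F10, coagulation factor X, at 40.6 CPM in vehicle monocytes and 132 CPM in corticosterone monocytes against 0.0324 and 0.0419 CPM in microglia. Of 10 S100, annexin and galectin genes, 8 met the same limit. By contrast, 0 of 13 regulators of the monocyte lineage met it: Spi1, the gene of the myeloid factor PU.1, stood at 569 and 678 CPM in monocytes and 565 and 664 CPM in microglia.

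Among the 15 genes with the highest ratio over microglia were Ms4a8a, F10, Hopx, Arhgef37, Elane, Prtn3, Ms4a4b, Ahnak, Klra2, Rara, Emilin2, Pdlim1, Nfe2 and Ndrg1. Ahnak, which encodes a large scaffold protein, had 579 CPM in vehicle monocytes and 1373 CPM in corticosterone monocytes against 1.2 and 1.5 CPM in microglia. Elane and Prtn3 encode proteases of granulocyte and monocyte progenitors. Their UMIs lay in few barcodes: Elane in 4 vehicle and 4 corticosterone monocytes, with 82.1% of its corticosterone UMIs in 1 barcode.

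Markers of T and NK cells, mast cells and basophils, and platelets were at or near 0, whereas those of the other cell types looked for were not, and their sums are given here. Of 12 T and NK cell markers, 12 were at 0 in vehicle monocytes and 11 in corticosterone monocytes, and of 8 mast cell and basophil markers 8 and 7 were at 0. The 7 platelet markers summed to 40.6 and 15.2 CPM. Neutrophil and class II genes were limited by the rule, so their low levels are part of the choice. The 12 dendritic cell markers summed to 356 and 447 CPM, most of them at 0 in vehicle (10 of 12) and 5 of 12 at 0 in corticosterone. The 12 neutrophil markers summed to 742 and 1058 CPM, with Lcn2 and Mmp8 the highest ratios (log2 2.27 and 1.49), and the 8 progenitor markers to 254 and 211 CPM. The 8 plasmacytoid cell markers summed to 1240 and 945 CPM, nearly all of it in Siglech, which microglia also carry, Bst2, which is on the interferon list, and Tcf4; the other 5 were at 0 in vehicle. The 10 B cell markers summed to 457 and 219 CPM, the 8 border macrophage markers to 335 and 330 CPM and the 12 neural and glial markers to 224 and 245 CPM. The 10 endothelial markers summed to 305 and 921 CPM, with 7 and 0 of them at 0, and the 8 erythroid markers to 600 and 82.5 CPM, with 4 and 2 at 0. Their part in the values that follow was not tested.

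Microglial RNA was present and differed between the libraries. The 10 microglia markers summed to 15964 CPM in vehicle monocytes and 5880 CPM in corticosterone monocytes, against 35568 and 30205 CPM in microglia, and 0 of the 10 were at 0 in either. In single monocytes the sum ranged from 1172 to 35815 CPM in vehicle (median 6915) and from 333 to 23327 CPM in corticosterone (median 1322). P2ry12, a purinergic receptor of microglia, had 3079 CPM in vehicle against 728 in corticosterone, and 1 barcode held 54.8% of its vehicle UMIs. A share of the 4 microglia markers below 0.25 of the microglia median of the library was found in 9 of 16 vehicle and 46 of 57 corticosterone monocytes. Values over these 55 barcodes, called low in microglial RNA, are given below for the main lists and for genes whose call they change. The part of microglial RNA in the other values was not tested.

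The design asks how gene expression differs between corticosterone and vehicle. In the monocytes, corticosterone was higher for interferon-response genes, for Chil3 and for part of the classical and nonclassical monocyte genes, and lower for microglia markers, cell cycle genes and hemoglobin genes. Of 3361 genes, 263 were 2-fold or more higher (7.83%) and 347 were 2-fold or more lower (10.3%). With the added condition that the counting interval of the ratio excluded 0 on the log2 scale, 177 were higher (5.27%) and 249 were lower (7.41%). The median log2 ratio of all genes was -0.12, with a 5th percentile of -1.32 and a 95th percentile of 1.28. Scaling moved this balance: higher genes were 43.1% of those called here, 66.7% with TMM factors from edgeR and 62.6% with size factors from DESeq2, which put the median of all genes at 0.13 and 0.11. With 16 vehicle barcodes, single barcodes weigh heavily. In the monocytes low in microglial RNA, several genes called below lay under 2-fold in log2 ratio: Anxa1 (0.81), H2-D1 (0.78), Mmp8 (0.75), Cybb (0.69), Ifi204 (0.69), Cd44 (0.36), Slc16a3 (0.29), Cx3cr1 (0.04), Dnajb1 (-0.06), Srgap2 (-0.12) and Jun (-0.61). The rule genes Plac8 (0.84) and S100a4 (0.78) also lay under 2-fold there. Ifit2 and Fcgr4 had 0 UMIs in vehicle, so their values there, 0.98 and 0.91, are bounds and not ratios. The vehicle barcodes of that subset held 41470 UMIs, fewer than all 16, so 3 UMIs stand for a higher level. This lowers the bound of any gene at 0 in vehicle, so a drop in the bound does not show a smaller difference.

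Interferon-response genes, which cells switch on when type I or type II interferon binds its receptor, were higher as a list. Of 24 genes, 20 passed the filter, and 12 of these were 2-fold or more higher in corticosterone, 0 were 2-fold or more lower and 8 were neither, beside 7.83% higher and 10.3% lower over all genes. The list's median log2 ratio was 1.39, against -0.12 over all genes, with genes at 0 in vehicle set at the bound that 3 UMIs give. It was 1.15 over the same 20 genes in the monocytes low in microglial RNA and 2.05 over these genes in microglia. In the monocytes low in microglial RNA, fewer vehicle UMIs lower the bounds of the genes at 0 in vehicle. In single monocytes the summed level of the list ranged from 767 to 17576 CPM in vehicle (median 8203) and from 5198 to 31984 CPM in corticosterone (median 18204). The ranges overlapped.

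Isg15 (ENSMUSG00000035692) encodes a ubiquitin-like protein that is joined to other proteins after interferon signalling. It had 0 UMIs in the 16 vehicle monocytes, which allows a level of up to 30.5 CPM (3 UMIs), and 140 UMIs in 39 of 57 corticosterone monocytes, at 304 CPM (256 to 359). Counted against 3 UMIs in vehicle, it was at least 9.98-fold higher (log2 3.32). In the monocytes low in microglial RNA, where fewer vehicle UMIs lower the bound, the log2 bound was 2.31. Thinned to 1000 UMIs, it was found in 0 of 14 vehicle and 16 of 57 corticosterone monocytes (28.1%, 17 to 41.5%). Unthinned shares were 0 of 16 and 68.4%. The thinned shares were 1.68% and 5.66% in microglia, and 0 of 20 and 1 of 12 in erythroid barcodes. The corticosterone erythroid barcodes had a median of 1968.5 genes, against 402 in vehicle. The 4 microglia markers made up 0.357% of their UMIs (0.78% in microglia), so they are not a clean measure of background. Median depths before thinning were 3230 and 3993 UMIs in microglia and 4551 and 8491.5 UMIs in erythroid barcodes. In single corticosterone monocytes Isg15 ranged from 0 to 1547 CPM, with a median of 208 CPM.

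Irf7, the transcription factor that amplifies interferon production, had at most 1 UMI in any vehicle monocyte and was detected in 7 of 16, at 71.1 CPM (28.6 to 147). In corticosterone it was detected in 53 of 57, at 534 CPM (470 to 605), a log2 ratio of 2.91 (1.84 to 4.24). The median barcode had 0 CPM of Irf7 in vehicle and 490 CPM in corticosterone, with highest values of 428 and 2619 CPM. Rtp4, an interferon-induced chaperone of membrane receptors, went from 3 UMIs in 2 vehicle monocytes to 179 UMIs in 50 corticosterone monocytes, a log2 ratio of 3.67 (2.10 to 5.96). In the monocytes low in microglial RNA the log2 ratios of Irf7 and Rtp4 were 2.43 and 2.63.

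Several other antiviral genes were at or near 0 in vehicle monocytes. Ifit3 and Ifit2 had 0 UMIs in vehicle and were detected in 37 and 25 of 57 corticosterone monocytes. They were at least 6.56-fold and 3.92-fold higher, counted against 3 UMIs. Low in microglial RNA, their log2 bounds were 1.59 and 0.98. With fewer vehicle UMIs there, the bound of 0.98 does not show a ratio under 2-fold. Oas3, an enzyme that senses double-stranded RNA and is not on the list, also had 0 UMIs in vehicle, was detected in 40 of 57 and was at least 5.84-fold higher. Oasl2 went from 61 to 330 CPM, Usp18, which removes Isg15 from proteins, from 50.8 to 176 CPM and Stat2, a signal carrier of the interferon receptor, from 20.3 to 148 CPM (2 and 68 UMIs, log2 ratio 2.86, 0.95 to 5.94). These values were higher in corticosterone with counting intervals that excluded 0 on the log2 scale.

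The most abundant interferon genes differed less. Ifitm3, a membrane protein that blocks virus entry, had 2703 CPM in vehicle against 5078 in corticosterone, a log2 ratio of 0.91 (0.73 to 1.10), and was already far above microglia (26.9 and 139 CPM). Ly6e stood at 2246 and 4251 CPM and was detected in every monocyte of both libraries. Irf9, part of the transcription factor complex of type I interferon, was lowest in the list, at 91.5 and 97.7 CPM, a log2 ratio of 0.10 (-0.95 to 1.31). Ifi204 and Ifi207, at log2 ratios of 1.42 and 0.70, belong to a family of similar copies, so their separate values are uncertain.

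**Figure D2:**
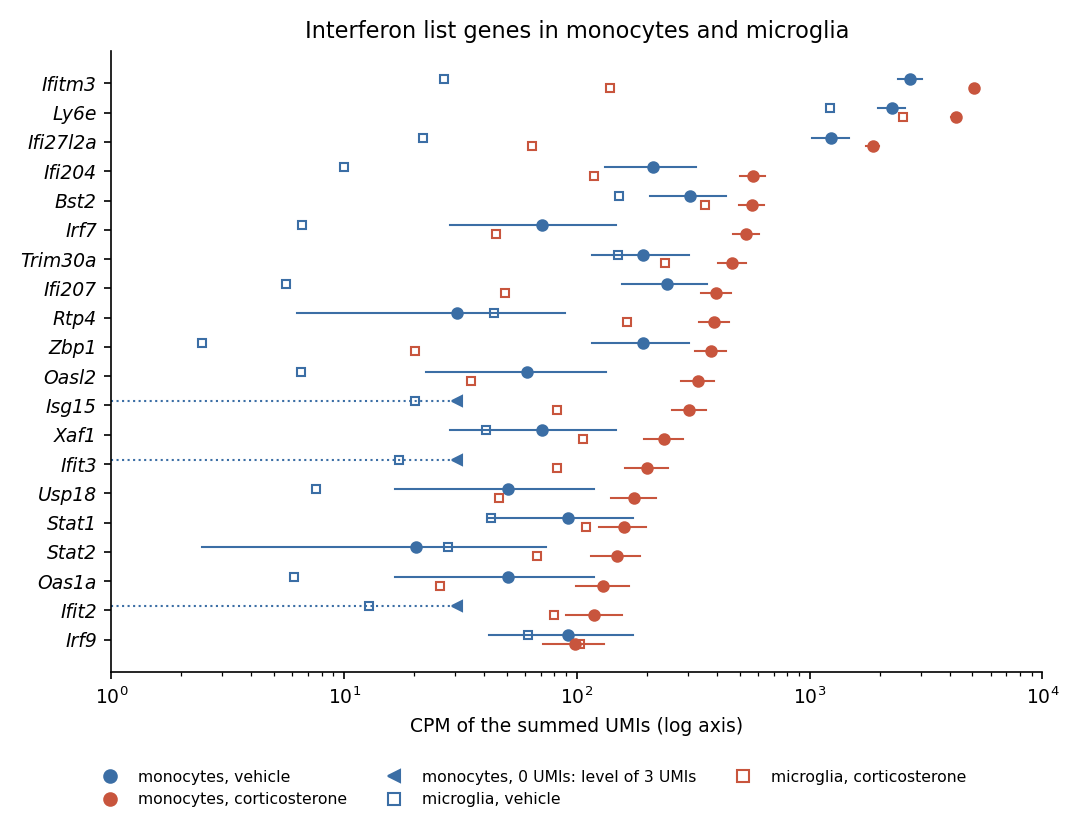
CPM of the 20 interferon list genes that passed the filter in monocytes (filled, with counting intervals) and microglia (open squares) of the vehicle and corticosterone libraries, on a log axis, with triangles at the level of 3 UMIs (30.5 CPM) for genes with 0 UMIs in vehicle monocytes. Corticosterone lies to the right of vehicle for all 20 genes in monocytes, with the closest pair at Irf9.

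Promoters of 3 list genes are shown, Isg15 and Ifit3, which were called higher, and Bst2, which was under 2-fold. They hold matches to a core of the interferon-stimulated response element, the DNA site of interferon-activated factors. The letters searched were GAAANNGAAA on both strands. RefSeq promoters of build GRCm38.p6, from 250 bases before to 50 after each start, were matched for 17 of the 24 list genes, and 12 of the 17 held a match (70.6%). Over all 32817 promoter windows of this length, 1126 held a match (3.43%). Counted by gene, as for the list, the share was 3.99% of all genes and 5.13% of the genes tested in monocytes. Below, the 180 bases before the start are printed 5′ to 3′ on the strand of the gene, with matches in capitals, for Isg15 at chr4:156200819-156200998 (minus strand), Ifit3 at chr19:34583349-34583528 (plus strand) and Bst2 at chr8:71537473-71537652 (minus strand).
Isg15: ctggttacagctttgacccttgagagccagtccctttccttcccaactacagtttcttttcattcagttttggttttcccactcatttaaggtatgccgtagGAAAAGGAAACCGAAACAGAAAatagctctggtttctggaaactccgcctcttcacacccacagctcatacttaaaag
Ifit3: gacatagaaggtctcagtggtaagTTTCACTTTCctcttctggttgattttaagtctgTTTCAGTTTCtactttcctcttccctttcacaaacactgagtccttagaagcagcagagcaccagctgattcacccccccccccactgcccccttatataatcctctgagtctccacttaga
Bst2: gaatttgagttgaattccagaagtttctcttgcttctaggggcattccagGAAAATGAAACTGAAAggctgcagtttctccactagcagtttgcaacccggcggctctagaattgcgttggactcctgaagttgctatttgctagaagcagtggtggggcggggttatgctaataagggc
Isg15 held 3 overlapping matches, Ifit3 held 2 on the opposite strand and Bst2, a membrane protein that tethers viruses, held 2 overlapping matches. The level of Bst2 was 305 CPM in vehicle monocytes and 563 CPM in corticosterone monocytes (log2 ratio 0.88, 0.34 to 1.48). Ifit2, Irf7, Oasl2, Xaf1 and Irf9 held none in this window.

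Among the classical monocyte genes, Chil3 had the largest difference in CPM and Vcan the highest log2 ratio. Chil3 (ENSMUSG00000040809) encodes Ym1, a chitinase-like secreted protein of myeloid cells. It was detected in 9 of 16 vehicle monocytes, with a lowest, median and highest CPM of 0, 674 and 3311, and in 51 of 57 corticosterone monocytes, with 0, 8197 and 36714. The groups overlapped at the low end, and the corticosterone median lay above the highest vehicle barcode. Its summed level was 1260 CPM in vehicle (1048 to 1502) and 10250 CPM in corticosterone (9960 to 10547). The log2 ratio was 3.02 (2.77 to 3.29), and it was 2.62 in the monocytes low in microglial RNA. Thinned to 1000 UMIs, Chil3 was found in 6 of 14 vehicle monocytes (42.9%, 56.2% unthinned) and 49 of 57 corticosterone monocytes (86%, 89.5% unthinned), against 0.64% and 0.791% of microglia and 0 of 20 and 0 of 12 erythroid barcodes. Microglia held 5.73 and 7.30 CPM.

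Of 18 classical monocyte genes, 16 passed the filter: 5 were 2-fold or more higher, 0 were 2-fold or more lower and 11 were neither, with a median log2 ratio of 0.79 (0.46 low in microglial RNA). Beside Chil3, the higher genes were Vcan, the matrix proteoglycan versican, from 30.5 to 250 CPM (log2 ratio 3.03), Clec4e, a receptor for microbial and damage signals, from 61 to 215 CPM (1.82), F10 (1.70) and Gpr141 (1.06). Vcan had 3 UMIs in vehicle, so its interval is wide (1.45 to 5.33). F13a1, coagulation factor XIII, stood at 661 and 765 CPM and Cd14, a receptor for bacterial lipopolysaccharide, at 467 and 380 CPM, with counting intervals that included no difference. In microglia the same 16 genes had a median of -0.30.

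A group of barcodes had a nonclassical pattern. An Ace UMI was found in 1 of 16 vehicle monocytes (6.25%, 0.158 to 30.2%) and 13 of 57 corticosterone monocytes (22.8%, 12.7 to 35.8%), with overlapping intervals. This split was made after the values were seen. The 13 corticosterone barcodes held a median of 12 of 17 nonclassical genes (4 to 16), against 4 (1 to 10) in the 44 without Ace, and 6 of the 13 lacked Ly6c2 against 0 of the 44. The 1 vehicle barcode held 14 of the 17 genes and no Ly6c2.

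Within the corticosterone library, 15 of the other 16 nonclassical genes were higher in barcodes with Ace, with counting intervals that excluded 0 on the log2 scale. Of 18 classical genes, 9 were lower with such intervals, 2 were higher, Clec4e (315 against 187 CPM) and Lyz1 (118 against 16.7 CPM), and 7 had intervals that included 0. The value of Lyz1 rests on 12 UMIs in 2 of 13 barcodes with Ace, against 6 UMIs in 5 of 44 without. Treml4, a receptor of patrolling monocytes, stood at 374 CPM with Ace and 30.7 CPM without, Ear2, a ribonuclease, at 1662 and 117 CPM, and Itgal, the integrin chain of LFA-1, at 521 and 78.1 CPM. Nr4a1, the factor on which these cells depend, stood at 1436 and 714 CPM. Fn1 stood at 266 CPM with Ace and 2598 CPM without, F13a1 at 49.2 and 967 CPM, Vcan at 9.84 and 318 CPM and Ccr2 at 275 and 906 CPM. Ly6c2 was still at 3748 CPM with Ace, in 7 of 13 barcodes, against 8235 CPM without, so the Ace barcodes were mixed. Lcn2, a neutrophil and monocyte iron-sequestering protein, was at 0 in the 13 barcodes and 315 CPM in the 44. Interferon genes were close: Isg15 stood at 315 and 301 CPM and Rtp4 at 374 and 393 CPM.

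**Figure D3:**
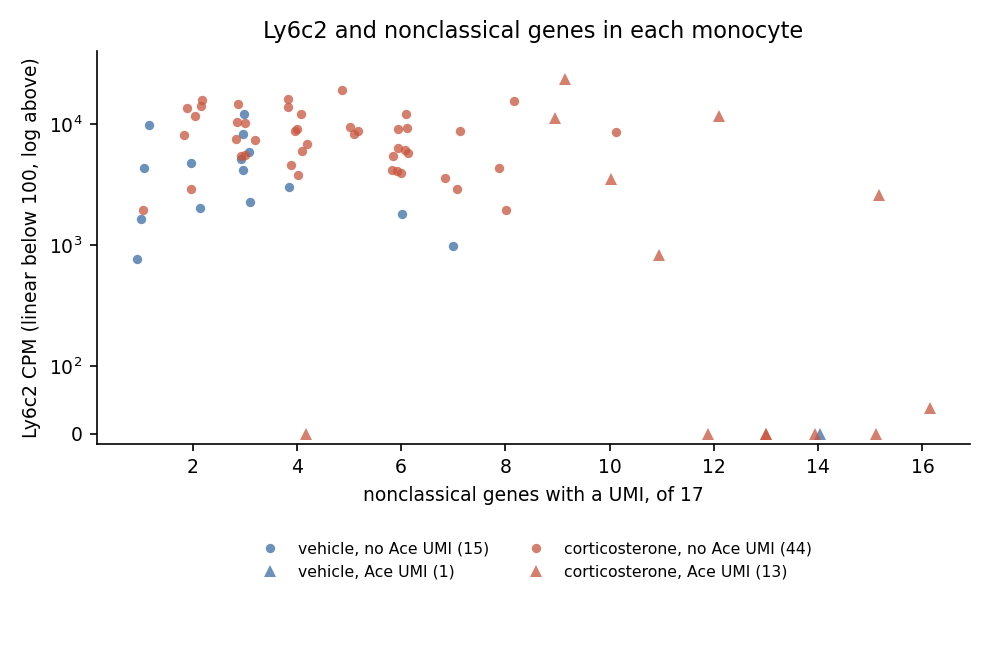
Ly6c2 CPM (linear below 100, logarithmic above) against the number of 17 nonclassical genes with a UMI in each monocyte barcode, with triangles for barcodes with an Ace UMI and colours for the libraries. The 7 barcodes at 0 for Ly6c2 all carry Ace, and all but 1 of them hold 12 or more nonclassical genes.

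Between the libraries, part of the nonclassical list was higher in corticosterone. Of 11 genes past the filter, 5 were 2-fold or more higher in corticosterone, 1 was lower and 5 were neither, with a median log2 ratio of 0.91. Treml4 (1 and 49 UMIs, 10.2 and 106 CPM, log2 ratio 3.39, 0.84 to 8.72) was highest and Cx3cr1, the fractalkine receptor that microglia also carry, was lowest (1595 and 786 CPM, -1.02). The median was 0.27 among barcodes without an Ace UMI and 0.04 in the monocytes low in microglial RNA. Ace itself, with 2 vehicle and 88 corticosterone UMIs, had a log2 ratio of 3.23 (1.34 to 6.30).

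Transcription factors of the lineage were close in the libraries. Of 13 regulators past the filter, 0 were 2-fold or more higher and 0 lower, with a median log2 ratio of 0.12. Irf5 was highest (203 and 402 CPM, 0.98). Cebpb stood at 1707 and 2135 CPM and Klf4 at 305 and 317 CPM.

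Genes of adhesion and movement were mixed. Of 20 genes past the filter, 4 were 2-fold or more higher, 2 were lower and 14 were neither, with a median log2 ratio of 0.41. Itgal was highest (30.5 and 176 CPM, 2.53, 0.93 to 4.84). The hyaluronan receptor Cd44 stood at 152 and 317 CPM and Ahnak at 579 and 1373 CPM (1.24). Of 10 S100, annexin and galectin genes, 1 was higher, Anxa1, a mediator of glucocorticoid action on leukocytes, at 346 and 788 CPM (1.19, 0.68 to 1.74).

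The glucocorticoid response list, which bears on the treatment, had no common direction. Of 20 genes, 10 passed the filter: 1 was 2-fold or more higher (Anxa1), 1 was lower (Per1, a clock gene induced by glucocorticoids, 132 and 34.8 CPM, -1.93) and 8 were neither. The median log2 ratio was -0.43 in all monocytes and 0.52 over the same genes in those low in microglial RNA. Tsc22d3, which encodes the glucocorticoid-induced leucine zipper, stood at 122 and 86.9 CPM with an interval that included 0 (-1.45 to 0.58). Fkbp5, a co-chaperone of the glucocorticoid receptor, had 2 UMIs in vehicle and 24 in corticosterone and did not pass the filter.

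Inflammatory genes were mixed too. Of 13 cytokine and chemokine genes past the filter, 1 was 2-fold or more higher, 2 were lower and 10 were neither, with a median log2 ratio of -0.30. Il1b, the inflammatory cytokine interleukin-1 beta, went from 5 UMIs in 3 of 16 vehicle monocytes to 118 UMIs in 23 of 57 corticosterone monocytes (50.8 and 256 CPM, 2.33, 1.07 to 3.98). Thinned to 1000 UMIs it was found in 0 of 14 and 17.5% of monocytes, and in 16.7% of the 12 corticosterone erythroid barcodes. Those 12 also held microglial RNA. The monocyte shares may include background, which was not tested. The chemokine gene Ccl12 and the cytokine gene Il1a were lower (589 and 239 CPM, and 305 and 132 CPM). Ccl2, the ligand of Ccr2, stood at 1026 and 797 CPM, with 49.5% of its vehicle UMIs in 1 barcode.

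Of 8 genes of the NADPH oxidase, the enzyme with which phagocytes make superoxide, 1 was 2-fold or more higher. Cybb, its catalytic subunit, had 782 CPM in vehicle against 1599 in corticosterone (log2 ratio 1.03, 0.69 to 1.39), while Cyba, its membrane partner, stood at 1331 and 1555 CPM. In microglia Cybb stood at 7.77 and 261 CPM. In the monocytes low in microglial RNA its log2 ratio was 0.69. Of 10 class I presentation genes, 2 were higher: H2-D1 (1667 and 3649 CPM, 1.13) and H2-T23 (254 and 678 CPM, 1.42).

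Among Fc and complement receptors, 2 of 11 genes were 2-fold or more higher and 0 lower. Fcgr4, an activating receptor for antibodies, had 0 UMIs in vehicle and 73 UMIs in 26 of 57 corticosterone monocytes, at least 5.2-fold higher, and Fcgr1 stood at 193 and 411 CPM. Low in microglial RNA, the log2 bound of Fcgr4 was 0.91, which with fewer vehicle UMIs does not show a ratio under 2-fold. Of the Toll and NF-kB genes, 1 of 10 was higher (Rela, from 3 to 36 UMIs) with an interval that included 0.

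Macrophage maturation genes were lower in more cases than higher. Of 15 past the filter, 2 were 2-fold or more higher and 5 lower, with a median log2 ratio of -0.56 (-0.76 low in microglial RNA). The complement genes C1qb and C1qc stood at 3130 and 1114 CPM and 3252 and 1447 CPM, but both are abundant in microglia, at 6554 and 6832 CPM in vehicle. Apoe, a lipid carrier, went the other way, from 285 to 2741 CPM (3.27, 2.73 to 3.86), as in microglia (484 and 4487 CPM). Its thinned share in corticosterone was 61.4% in monocytes, 61.9% in microglia and 58.3% in erythroid barcodes. These erythroid barcodes also held microglial RNA, as given for Isg15. The share may include background, which was not tested.

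The 12 genes with the highest lower bound of the ratio were Isg15, Chil3, Apoe, Ifit3, Oas3, Rtp4, Fcgr4, Irf7, Phf11d, Pla2g7, Ifit2 and Ly6c1. Pla2g7, an enzyme that degrades platelet-activating factor, stood at 20.3 and 258 CPM (2 and 119 UMIs, log2 ratio 3.67, 1.78 to 6.73). Phf11d was at 0 in vehicle and 132 CPM in corticosterone. Ly6c1 had 54 UMIs in 6 corticosterone barcodes, of which 1 held 53.7%, and 3 monocytes of this library carried 3 or more endothelial markers, Cldn5 among them.

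The 12 genes with the lowest upper bound were Fcrls, Hba-a1, Hpgds, Ecscr, Hbb-bt, Srgap2, P2ry12, Eef2k, Tpx2, Fscn1, Hbb-bs and Birc5. Fcrls, P2ry12, Hpgds and Srgap2 were more abundant in microglia than in monocytes, and Fcrls stood at 1199 and 143 CPM in monocytes against 2844 and 612 CPM in microglia. Thinned to 1000 UMIs, Fscn1, Ecscr and Eef2k were found in 36.3%, 33.3% and 11.6% of vehicle microglia. In vehicle monocytes these shares were 14.3%, 14.3% and 7.14%, from 2, 2 and 1 of 14 barcodes. The thinned vehicle shares of Hba-a1, Hbb-bs, Hbb-bt and Birc5 were lower in microglia than in monocytes. All 10 microglia markers were lower in corticosterone monocytes, 8 of them by 2-fold or more. Their median log2 ratio was -1.58 in monocytes and -0.52 in microglia. Hba-a1, a hemoglobin gene, went from 21 UMIs in 5 vehicle monocytes to 8 UMIs in 5 corticosterone monocytes. The 3 erythroid markers past the filter had a median log2 ratio of -3.62 in monocytes and -1.99 in microglia. Single barcodes held much of the vehicle UMIs of several of these genes, 90% for Eef2k and 60% for Srgap2. In the monocytes low in microglial RNA the log2 ratio of Srgap2 was -0.12, against -2.67 in all monocytes.

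Cell cycle genes were lower in corticosterone monocytes. Of 7 genes past the filter, 6 were 2-fold or more lower in corticosterone, beside 10.3% of all genes, with a median log2 ratio of -1.80 (-2.19 low in microglial RNA). In microglia the same 7 genes had a median of -1.37. Mki67, a proliferation marker, was detected in 5 of 16 vehicle and 2 of 57 corticosterone monocytes, at 224 and 58.6 CPM. At least 5 of 14 cell cycle genes were found in 4 of 16 vehicle monocytes (25%, 7.27 to 52.4%) and 2 of 57 corticosterone monocytes (3.51%, 0.428 to 12.1%), with overlapping intervals. This threshold was set after the values were seen.

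**Figure D4:**
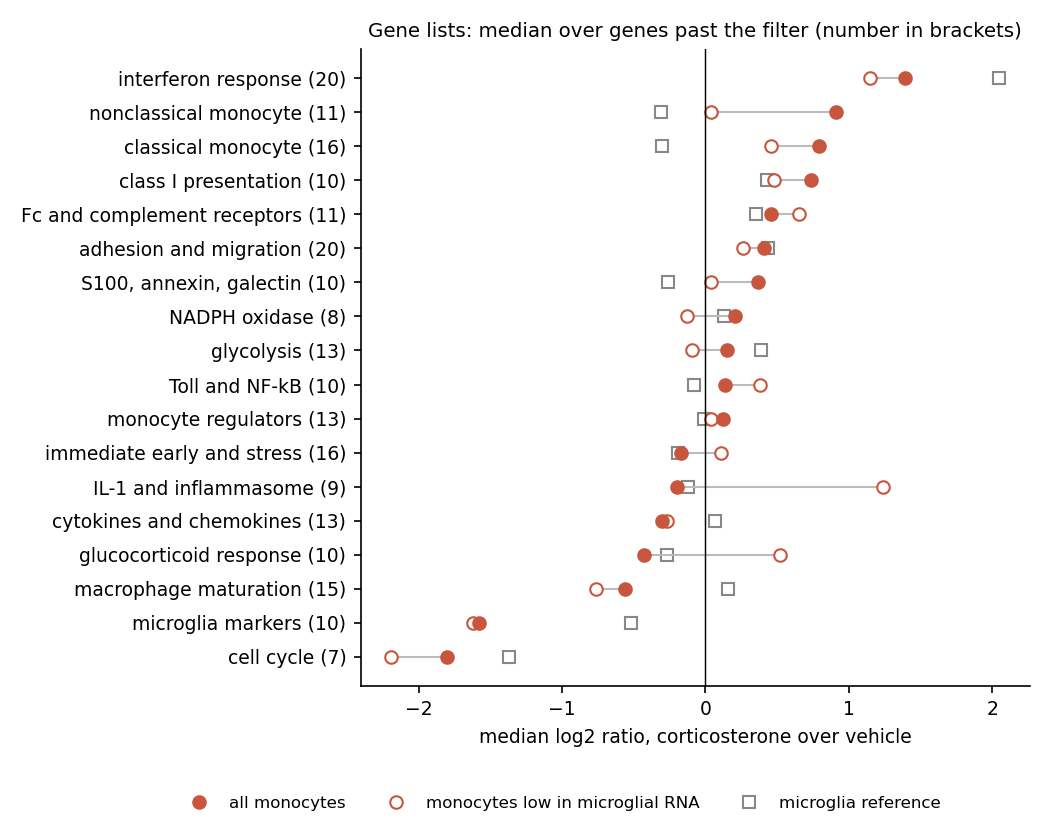
Median log2 ratio of corticosterone over vehicle for 18 gene lists in all monocytes (filled), in monocytes low in microglial RNA (open circles, same genes) and in microglia (squares), with the number of genes past the filter in brackets. The interferon list is highest in all monocytes at 1.39 and the cell cycle list is lowest at -1.80, and 5 lists (NADPH oxidase, glycolysis, immediate early and stress, interleukin-1 and inflammasome, glucocorticoid) have opposite signs in all monocytes and in those low in microglial RNA.

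Of 9 interleukin-1 and inflammasome genes, 1 was 2-fold or more higher and 1 lower, and their median was -0.20 in all monocytes and 1.24 in those low in microglial RNA. Of 16 immediate early and stress genes, 0 were higher and 2 lower, Jun (3973 and 1679 CPM, -1.24) and Dnajb1. Fos, an immediate early gene that also responds to tissue digestion, stood at 4502 and 4099 CPM. Of 13 glycolysis genes, 1 was higher, the lactate exporter Slc16a3, with an interval that included 0 (-0.22 to 3.78). Of the 14 clock genes only Nfil3 passed the filter, at 71.1 and 237 CPM (1.73, 0.64 to 3.08).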

How the data were processed

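Cells of the prefrontal cortex were sorted as CD45low CD11b+ and sequenced with a Singleron GEXSCOPE kit on an Illumina NovaSeq, per the labels' protocols. The deposited matrices hold whole-number UMI counts per gene and barcode, made by the authors and not normalised. The submitters' processing notes name bcl2fastq 2.19 and build GRCm38. The aligner, counting program, annotation and cell calling are not given in the sources used here. The files are named for wild type and depression and were assigned to groups through the sample records. Among 32589 features, 52 carried a symbol already listed and entered only the totals.

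UMIs were summed over the monocytes of each library, scaled to CPM and compared as a log2 ratio, with exact Poisson or conditional binomial intervals (shares: Clopper-Pearson). A gene at 0 was set at 3 UMIs per library. The filter on low levels kept genes with 10 or more UMIs and a mean CPM of 50 or more in the monocytes. These were tested, and called at 2-fold (4-fold against microglia in both libraries). A gene at 0 in a monocyte library could not be called above microglia. Shares with a UMI were taken after thinning to 1000 UMIs, which left out 2 vehicle monocytes and 0 corticosterone monocytes. Border macrophage, erythroid and microglia references came from fixed markers. Named genes were the 12 with the highest lower bound, the 12 with the lowest upper bound, the 15 highest over microglia and the extremes of each list, without mitochondrial, ribosomal, predicted and sex-read genes. Other genes of the lists are given as examples, and a few genes that the rule names are not reported here. The monocytes and lists were chosen with earlier results of these data known. Scripts ran in Python 3.11.15 with scipy 1.17.1. The ratio script was tested on simulated data. Scaling alternatives used edgeR 4.0.16 and DESeq2 1.42.0 under R 4.3.3, for factors only.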

Additional observations from a re-analysis of the deposited data

Results flagged for a closer look

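Ace went in opposite directions in monocytes and microglia. Its log2 ratio of corticosterone over vehicle was 3.23 in monocytes (2 and 88 UMIs) and -2.11 in microglia, where it stood at 0.421 and 0.0979 CPM. S100a4 also did so, at 1.02 in monocytes (661 and 1340 CPM) and -1.0 in microglia (1.23 and 0.615 CPM). S100a4 is a gene of the rule, and its log2 ratio was 0.78 in the monocytes low in microglial RNA. With 1 library per group, the difference between the classes was not tested, and the microglial levels are near 0.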

How the results depend on the processing

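No paired analysis was possible because each group is 1 library. The share of monocytes was 0.257% in vehicle with at least 3 of 7 genes and 0.0849% on barcodes thinned to 1000 UMIs, and 0.24% in corticosterone with no neutrophil gene allowed, against 0.152% and 0.319%. It was higher in corticosterone under all 7 alternatives. The count of genes 2-fold or more lower, 347, was 591 in monocytes low in microglial RNA, 196 with TMM factors from edgeR and 229 with size factors from DESeq2. The count of genes 2-fold or more higher, 263, was 414 when CPM was averaged over barcodes. Without the filter on low levels the counts were 816 higher and 1973 lower, and with a mean CPM of at least 200 they were 45 and 44. The causes were not tested, except that these 2 filters change how many genes enter, 8365 and 784.

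The DESeq2 size factors were exactly 0.5 and 2. Of 8369 genes with a UMI in both libraries, 371 had a UMI ratio of exactly 4, the median, so low counts fix these factors coarsely. Factors from the 3352 genes past the filter with a UMI in both, added after the data were seen, gave 314 higher and 278 lower and a median of all genes of 0.00. Among alternatives for gene lists, the cell cycle median reversed to 0.73, over the 1 gene that still passed the filter, when barcodes with Ace or with 5 or more cell cycle genes were left out. That alternative was also added after the data were seen. The interferon median lay between 0.87 (22 genes, low in microglial RNA) and 1.63 (edgeR TMM factors). Leaving out a replicate was not possible. The 16 vehicle barcodes limit every ratio.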
